A study of Mus musculus with 5 samples.

Results

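Cohesin is the ring-shaped complex that holds sister chromatids together and extrudes chromatin loops, and 10 genes that encode its mitotic subunits and the proteins that load, stabilise or release it were examined here, out of the 25414 genes to which the deposited transcripts were assigned. The genes were taken by name: *Smc1a*, *Smc3* and *Rad21* for the ring, *Stag1* and *Stag2* for its STAG subunit, *Nipbl* and *Mau2* for the loader, and *Wapl*, *Pds5a* and *Pds5b* for the release factor and the PDS5 proteins. All 10 had values in all 5 samples. RNA was sequenced from neural stem cells (NSCs; 2 replicates) and from STO cells (3 replicates). The NSCs were primary cells isolated from embryonic mouse cortex, grown on poly-L-ornithine and laminin with EGF, bFGF, heparin and B27, and used at 5 to 8 passages. STO cells are a line of SIM mouse embryonic fibroblasts that serves as a feeder layer, grown in serum-containing DMEM for more than 30 passages, and their 3 replicates are therefore samples of 1 established line. No transgene or treatment is given for either group, and the strain is given as C57BL/6 for both, although the source of the STO cells is given as SIM fibroblasts, and this was not resolved. The cell types differ in medium, passage and origin together, and these cannot be told apart.

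The SMC1A and SMC3 proteins join at their hinges and are closed into a ring by the kleisin RAD21, to which a STAG protein binds. NIPBL, with MAU2, stimulates the ATPase of the ring, loads it onto DNA and drives loop extrusion, whereas WAPL opens it again with the help of PDS5A or PDS5B, and loops grow until cohesin meets CTCF. In neural progenitors and in fibroblasts alike the same ring serves cell division and the folding of interphase chromosomes, and meiotic germ cells replace several of its subunits by SMC1B, RAD21L, REC8 and STAG3.

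The libraries were of similar depth. Between 15223341 and 22271895 fragments per sample were implied by the confidence intervals that accompany the deposited FPKM values (fragments scaled to the length of the transcript and the size of the library). Pearson's r across the 12292 genes tested was 0.994 between the NSC replicates and 0.995 to 0.996 among the STO replicates. The neural stem cell and fibroblast markers followed the labels. The 6 neural stem cell markers summed to 3811 and 4028 FPKM in the NSC replicates and to at most 0.0724 FPKM in STO cells, where *Sox2*, *Olig2*, *Pax6* and *Fabp7* were listed at 0. The 6 fibroblast markers summed to 1352 to 1462 FPKM in STO cells and to 5.05 and 5.12 FPKM in NSCs. Most of the examined markers of differentiated neural cells were also present in NSCs. Of 4 astrocyte, 4 oligodendrocyte and 5 neuronal markers, 4, 3 and 4 had a mean of at least 1 FPKM in NSCs. *Gfap* was at 15.9 and 16.9 FPKM and *Mbp* at 83.4 and 88.3 FPKM there. The authors used *Gfap* as a negative control in RT-PCR of their cultured NSCs. The sums of the 3 lists were 70.4 to 71.4, 120 to 122 and 118 FPKM in NSCs and at most 0.432, 1.14 and 12.8 FPKM in STO cells. *Map2*, at 100 and 102 FPKM, made up most of the neuronal sum, *Rbfox3* and *Mog* had means of 0.515 and 0.541 FPKM in NSCs, and *Tubb3* was at 8.69 ± 0.785 FPKM in NSCs (SD, n = 2) and 8.30 ± 0.402 FPKM in STO cells (SD, n = 3). The 4 microglial and 4 endothelial markers summed to at most 0.0481 and 0.510 FPKM in NSCs, and *Tmem119* was the only one of the 8 above 1 FPKM in STO cells. In such bulk samples, fewer cells of a type and less RNA per cell cannot be told apart, and the part of these cells in the differences below was not tested.

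To show the sequence from which these genes are read, the 120 bases before the start of transcription are given for the 4 members with the largest differences between the cell types and for *Mau2*, which was not called with FPKM as deposited. They are RefSeq promoters in GRCm38.p6, printed 5′ to 3′ on the strand of the gene, and capitals mark matches to short motifs.
Pds5a, chr5:65698237-65698356, minus strand: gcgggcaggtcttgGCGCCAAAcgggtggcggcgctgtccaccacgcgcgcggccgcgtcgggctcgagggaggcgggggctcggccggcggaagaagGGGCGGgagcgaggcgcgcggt
Smc3, chr19:53600276-53600395, plus strand: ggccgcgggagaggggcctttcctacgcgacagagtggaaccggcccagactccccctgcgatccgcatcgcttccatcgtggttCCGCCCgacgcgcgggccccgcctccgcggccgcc
Pds5b, chr5:150673707-150673826, plus strand: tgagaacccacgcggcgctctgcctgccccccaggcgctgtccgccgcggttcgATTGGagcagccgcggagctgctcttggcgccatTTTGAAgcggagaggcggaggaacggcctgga
Stag1, chr9:100643328-100643447, plus strand: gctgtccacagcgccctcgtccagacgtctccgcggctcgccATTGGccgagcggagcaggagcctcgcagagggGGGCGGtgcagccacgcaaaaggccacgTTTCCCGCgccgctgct
Mau2, chr8:70042735-70042854, minus strand: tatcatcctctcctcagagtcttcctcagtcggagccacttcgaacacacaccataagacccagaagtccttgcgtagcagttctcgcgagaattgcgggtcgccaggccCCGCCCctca
Of the 10 members, 7 had an entry in the promoter table, with 8 windows, since *Mau2* had 2; *Rad21*, *Stag2* and *Nipbl* were not in it. The motifs were searched on both strands of the 250 bases before the start: GGGCGG (GC box), CCAAT, the E2F letters TTTGGCGC and TTTCCCGC, TTTGAA (CHR), CACGTG (E-box), CCGGAAG (ETS) and TGACGTCA (CRE). A GC box was found in 7 of the 8 windows, against 32.7% of all 32851 windows, and CCAAT in 4 of 8, against 33.8%. TTTGGCGC was present in *Pds5a*, 106 bases before its start, and TTTCCCGC in *Stag1*, 17 bases before its start, against 0.417% and 0.895% of all windows. TTTGAA was present in *Pds5b*, 32 bases before its start, against 16.0% of windows. CACGTG was present in the other *Mau2* window alone, against 6.02% of windows. No member window held the ETS or CRE letters, which were present in 6.91% and 1.55% of windows. In 250 bases, the windows held 44 CpG in *Pds5a*, 36 in *Pds5b*, 32 in *Wapl*, 31 in *Stag1*, 26 in *Smc3*, 16 in *Smc1a*, and 18 and 1 in the *Mau2* windows, against a median of 6 over all windows. A match describes letters in these windows and shows no binding.

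The main question was whether the 2 cell types express cohesin and its regulators at the same level. Of the 10 members, 8 were higher in STO cells (*Pds5a*, *Smc3*, *Pds5b*, *Stag1*, *Nipbl*, *Wapl*, *Smc1a* and *Stag2*), none was lower, and *Rad21* and *Mau2* did not pass the threshold (limma on log2(FPKM + 1), adjusted p under 0.05 over all genes tested). At an unadjusted p under 0.05 the count of lower members was also 0. The cell types differed in most of the transcriptome, with 85.6% of tested genes called, 41.9% higher and 43.7% lower in STO cells. In 8 of the 10 members the samples of the cell types did not overlap, as in 89.9% of tested genes, and in those 8 all STO samples lay above all NSC samples, as in 43.9%. A call or a gap by itself therefore says little here, and the sizes carry the description. The median difference over the 10 members was 0.75 on the log2(FPKM + 1) scale, against -0.023 over all genes tested. With FPKM as deposited, *Pds5a* and *Smc3* reached a log2 difference of 1 and no member one of -1, as did 17.1% and 21.3% of tested genes among those called.

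**Figure D1:**
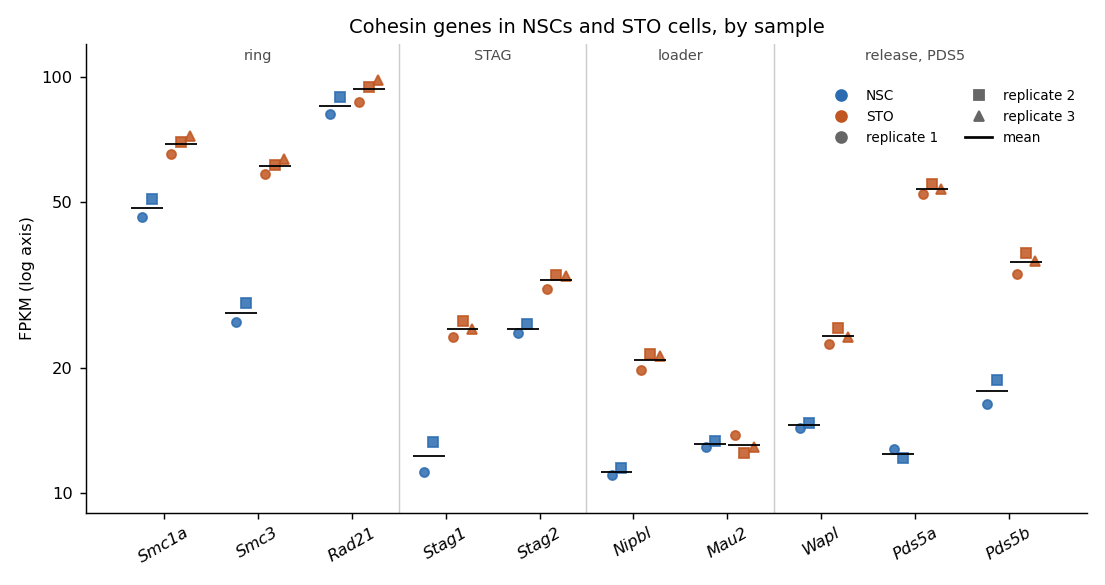
FPKM (log axis) of the 10 cohesin genes in each sample, with NSC replicates in blue, STO replicates in orange and a bar at each mean. All STO points lie above all NSC points for 8 genes, the points overlap for *Rad21* and *Mau2*, and the widest gap is that of *Pds5a*, from 12.2 and 12.8 FPKM in NSCs to 52.5 to 55.4 FPKM in STO cells.

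The 3 ring subunits were the most abundant members per length in both cell types, but they differed unequally between them. *Smc3*, which encodes the SMC subunit that is acetylated to stabilise cohesion, had 25.8 and 28.6 FPKM in the NSC replicates and 58.4, 61.4 and 63.5 FPKM in the STO replicates. The means were 27.2 ± 2.04 (SD, n = 2) and 61.1 ± 2.56 (SD, n = 3), a ratio of 2.25, and the difference of 1.14 ± 0.068 (SE) on the log2(FPKM + 1) scale had an adjusted p of 8.48e-06. *Smc1a*, its partner SMC subunit on the X chromosome, rose less, from 46.1 and 50.9 FPKM in NSCs to 65.5, 69.7 and 72.2 FPKM in STO cells (log2 difference 0.50 ± 0.070, SE, adjusted p = 0.000587). Every STO sample exceeded every NSC sample for both SMC genes. *Rad21*, the kleisin that separase cleaves at anaphase, was the most abundant member, with 81.4 and 89.3 FPKM in NSCs and 87.0, 94.8 and 98.5 FPKM in STO cells. Its samples overlapped and the difference of 0.13 had a 95% interval from -0.056 to 0.31 (adjusted p = 0.15), which leaves room for a small difference in either direction. Where FPKM were rescaled to the same sum in each sample, the difference of *Rad21* became 0.30 (adjusted p = 0.00814).

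The STAG subunit exists in alternative forms, STAG1 and STAG2, which bind the same site of the ring and differ in how they hold it at CTCF sites and within loops. *Stag1* had 11.2 and 13.3 FPKM in NSCs and 23.8, 25.9 and 24.8 FPKM in STO cells. The means of 12.3 ± 1.48 (SD, n = 2) and 24.9 ± 1.08 (SD, n = 3) FPKM differed by 0.96 ± 0.082 (SE) on the log2(FPKM + 1) scale (adjusted p = 5.04e-05). *Stag2*, which is X-linked, had the larger sum of transcripts in every sample, with 24.2 and 25.5 FPKM in NSCs and 31.0, 33.5 and 33.2 FPKM in STO cells, a smaller difference of 0.38 ± 0.058 (SE, adjusted p = 0.000983). For the leading transcript of *Stag2* alone the difference was 0.60. Summed, the 2 STAG genes came to 35.5 and 38.8 FPKM in NSCs and to 54.8, 59.4 and 58.0 FPKM in STO cells, and *Stag1* made up 31.7% and 34.4% of that sum in NSCs and 43.4%, 43.7% and 42.8% in STO cells. The X-linked members lay within a chromosome whose 410 tested genes had a median log2 difference of 0.0023. *Xist*, the RNA that coats the inactive X, was at 12.7 and 11.4 FPKM in NSCs and at most 0.0272 FPKM in STO cells. The 4 Y-linked genes examined (*Ddx3y*, *Eif2s3y*, *Kdm5d* and *Uty*) were at 2.49 to 8.98 FPKM in NSCs and listed at 0 in STO cells. The part of X and Y content in the values of *Smc1a* and *Stag2* was not tested.

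The subunits of the loader parted from each other. *Nipbl*, the large HEAT-repeat subunit that activates the cohesin ATPase, had 11.1 and 11.5 FPKM in NSCs and 19.8, 21.7 and 21.4 FPKM in STO cells, without overlap. The log2 difference was 0.84 ± 0.061 (SE, adjusted p = 2.27e-05), and 0.55 for its leading transcript alone. *Mau2*, which wraps the N terminus of NIPBL, had 12.9 and 13.3 FPKM in NSCs and 13.8, 12.5 and 12.9 FPKM in STO cells. The samples of *Mau2* overlapped, and the 95% interval of its difference, from -0.15 to 0.14 on the log2(FPKM + 1) scale, leaves out a change of the size seen for *Nipbl*. With FPKM rescaled to the same sum its difference was 0.16 (adjusted p = 0.038), and for its leading transcript alone 0.25 (adjusted p = 0.026).

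The release factor and both PDS5 genes were higher in STO cells, and *Pds5a* stood apart. *Pds5a* encodes a HEAT-repeat protein that binds RAD21 and can both help WAPL to release cohesin and help it to be acetylated. It had 12.8 and 12.2 FPKM in NSCs and 52.5, 55.4 and 53.8 FPKM in STO cells, with means of 12.5 ± 0.431 (SD, n = 2) and 53.9 ± 1.47 (SD, n = 3) FPKM and a ratio of 4.32. The log2 difference was 2.03 ± 0.053 (SE, adjusted p = 1.65e-07), larger than that of 93.5% of all genes tested, and *Pds5a* moved from the 8th to the 4th most abundant member. Its paralog *Pds5b* had 16.4 and 18.7 FPKM in NSCs and 33.7, 37.8 and 36.1 FPKM in STO cells (log2 difference 0.99 ± 0.078, SE, adjusted p = 3.51e-05). *Wapl*, which opens the gate between SMC3 and RAD21, had 14.4 and 14.8 FPKM in NSCs and 22.9, 24.9 and 23.8 FPKM in STO cells (log2 difference 0.67 ± 0.057, SE, adjusted p = 4.74e-05). None of the 3 genes had overlapping samples, and together the PDS5 genes rose from 29.2 and 30.9 FPKM to 86.1, 93.2 and 89.9 FPKM.

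**Figure D2:**
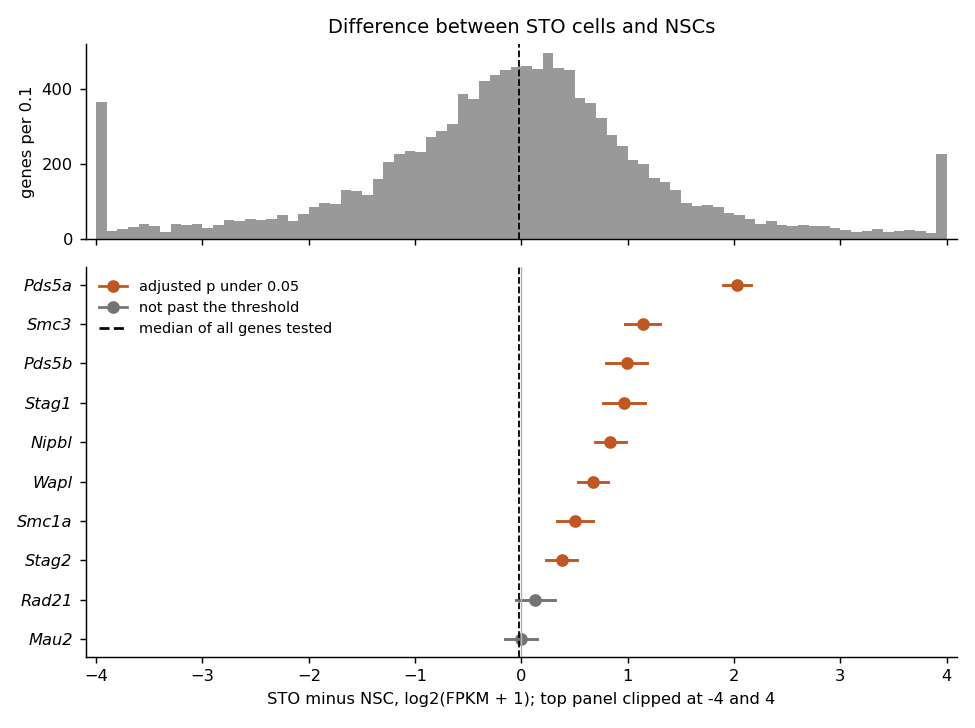
Top, the number of tested genes by their difference between STO cells and NSCs on the log2(FPKM + 1) scale, with values past -4 and 4 in the outer bars; bottom, the difference of each cohesin gene with its 95% interval from limma, in orange where the adjusted p is under 0.05. The 8 orange genes run from 0.38 (*Stag2*) to 2.03 (*Pds5a*), and the intervals of *Rad21* and *Mau2* include 0; the dashed line is the median of all genes tested, -0.023.

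The differences depended on the scale, and across genes they moved with the length of the mRNA. Rescaling every sample to the same FPKM sum shifted the median of all genes by 0.16. On that scale all 10 members were called higher, as were 5876 of the 12292 genes tested, and 4669 were lower. With FPKM as deposited all 10 members lay above the median of all genes. The 10640 tested genes with a coding transcript in the NCBIM37 annotation were put into 10 bins of nearly equal size by the length of their longest mRNA. The median log2 difference ran from -0.53 in the bin of the shortest mRNAs to 0.21 in that of the longest. The members, with longest mRNAs of 3604 (*Rad21*) to 8815 bases (*Nipbl*), all lay in the 5 bins of longer mRNAs. The medians of those bins ran from 0.079 to 0.21, without a steady rise. Against the median of their own bin, *Pds5a* was higher by 1.94, *Smc3* by 1.06, *Stag1* by 0.83 and *Pds5b* by 0.78. *Nipbl* was higher by 0.63, *Wapl* by 0.54, *Smc1a* by 0.42 and *Stag2* by 0.25, whereas *Rad21* was at 0.0028 and *Mau2* at -0.13. The part of mRNA length in these differences was not tested.

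By their level per length the members kept the order *Rad21*, *Smc1a* and *Smc3* at the top in both cell types, at 85.4 ± 5.61, 48.5 ± 3.42 and 27.2 ± 2.04 FPKM in NSCs (SD, n = 2) and 93.5 ± 5.85, 69.1 ± 3.41 and 61.1 ± 2.56 FPKM in STO cells (SD, n = 3). In NSCs they were followed by *Stag2*, *Pds5b*, *Wapl*, *Mau2*, *Pds5a*, *Stag1* and *Nipbl*. The range of *Stag1* over replicates there overlapped those of *Mau2*, *Pds5a* and *Nipbl*, and no other ranges overlapped. In STO cells the order went on with *Pds5a*, *Pds5b*, *Stag2*, *Stag1*, *Wapl*, *Nipbl* and *Mau2*, and only *Stag1* and *Wapl* overlapped. *Mau2* was thus the least abundant member in STO cells and *Nipbl* in NSCs. Among all tested genes the levels of the members ran from percentile 50.7 (*Nipbl* in NSCs) to percentile 94.3 (*Rad21* in STO cells).

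Because FPKM are per length, ratios between members could be taken within each sample, where the scaling of the library cancels. The ratio of *Smc3* to *Smc1a* was 0.559 and 0.562 in NSCs and 0.893, 0.881 and 0.880 in STO cells, so the SMC genes were closer to equal in STO cells. That of *Pds5a* to *Pds5b* was 0.776 and 0.649 in NSCs and 1.56, 1.47 and 1.49 in STO cells, and by these sums the more abundant PDS5 gene was a different member in each cell type. That of *Nipbl* to *Mau2* was 0.855 and 0.864 in NSCs and 1.43, 1.73 and 1.66 in STO cells. The order of the loader genes was reversed too in these sums. Neither reversal was seen with the leading transcript of each gene, where *Pds5a* to *Pds5b* was 1.19 and 1.03 in NSCs and at least 2.18 in STO cells, and *Nipbl* to *Mau2* 1.12 and 0.995 in NSCs and 1.16, 1.43 and 1.36 in STO cells. *Stag1* to *Stag2* rose from 0.464 and 0.523 to 0.768, 0.775 and 0.748, and the summed STAG genes relative to *Rad21* from 0.436 and 0.434 to 0.629, 0.627 and 0.589. *Wapl* to *Nipbl*, the genes for release and loading, was the only ratio of the 6 that was lower in STO cells, at 1.30 and 1.28 in NSCs and 1.16, 1.15 and 1.11 in STO cells. On the log2 scale the differences were 1.08 for *Pds5a* to *Pds5b*, 0.90 for *Nipbl* to *Mau2*, 0.66 for *Smc3* to *Smc1a*, 0.63 for *Stag1* to *Stag2*, 0.50 for the STAG sum to *Rad21* and -0.18 for *Wapl* to *Nipbl*. In none of the 6 did the cell types overlap. The share for ratios of other genes was not computed, and 89.9% of single tested genes did not overlap either. The exact two-sided permutation test used here takes 2 times the smaller tail. With 2 against 3 samples it cannot give a p below 0.2. That was the value of each ratio before and after adjustment over the 6. With only the leading transcript of each gene, the differences of *Nipbl* to *Mau2*, *Stag1* to *Stag2* and *Wapl* to *Nipbl* were 0.31, 0.28 and -0.057. For *Wapl* to *Nipbl* the samples then overlapped, at 1.31 and 1.61 in NSCs and 1.45, 1.42 and 1.32 in STO cells (exact permutation p = 0.8). That of *Stag1* to *Stag2* was then 0.909 and 0.900 in NSCs and 1.10, 1.14 and 1.04 in STO cells.

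**Figure D3:**
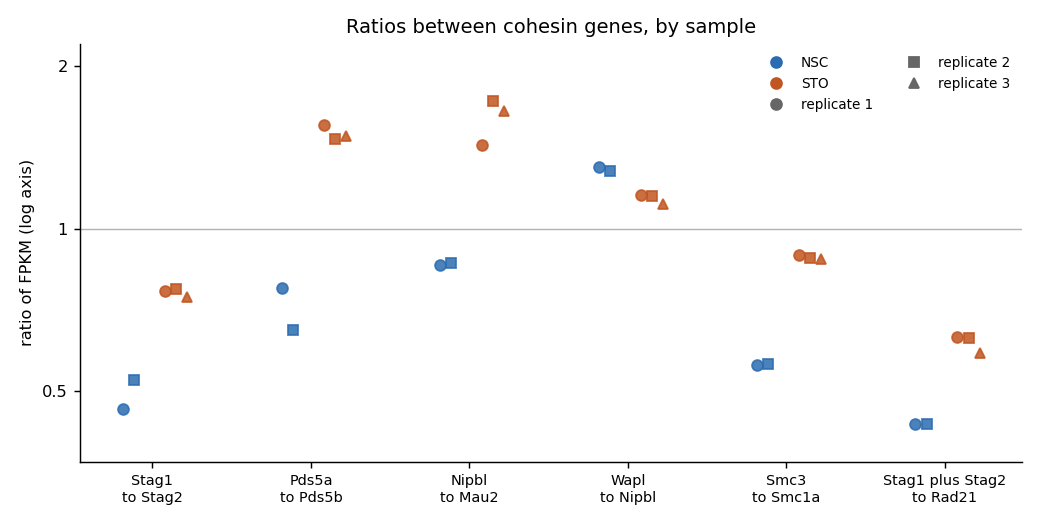
Ratio of the FPKM of 2 cohesin genes within each sample (log axis), with NSC replicates in blue and STO replicates in orange; the grey line marks equal levels. *Pds5a* to *Pds5b* and *Nipbl* to *Mau2* lie below 1 in both NSC replicates and above 1 in all 3 STO replicates, and *Wapl* to *Nipbl* is the ratio that falls.

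The files list 19 RefSeq transcripts for the 10 members, all with status OK, and 4 members have only 1 (*Smc1a*, *Smc3*, *Rad21* and *Pds5a*). Of the other 6, the share of the leading transcript did not overlap between the cell types in 5 (*Stag2*, *Nipbl*, *Mau2*, *Wapl* and *Pds5b*), as in 66.0% of the 2542 tested genes with at least 2 transcripts whose mean over the samples was 1 FPKM or more. In 3 of them (*Nipbl*, *Mau2* and *Wapl*) the share also moved by at least 10 percentage points, as in 53.7%. The move of *Wapl*, by -10.6 points, rested on NSC replicate 2. Without that replicate it was -1.37 points, and *Stag1* moved by -12.9 points in its place. For *Nipbl*, the form NM_201232 took 18.9% and 20.6% of the gene's FPKM in NSCs and 36.3%, 34.6% and 33.1% in STO cells. It rose from 2.23 ± 0.198 (SD, n = 2) to 7.26 ± 0.214 FPKM (SD, n = 3), while NM_027707 went from 9.06 ± 0.136 to 13.7 ± 0.960 FPKM. Both forms were thus higher in STO cells, by unequal factors of 3.25 and 1.51. For *Mau2*, NM_028993 was at 8.01 and 9.20 FPKM in NSCs and 10.9, 9.90 and 10.6 FPKM in STO cells, and NM_001167939 at 4.91 and 4.13 against 2.97, 2.63 and 2.39 FPKM. The leading form of *Mau2* was higher and the other lower in STO cells, without overlap in either. For *Stag2*, NM_021465 rose from 51.0% in both NSC replicates to 59.6%, 60.9% and 61.7%, and NM_001290713, at 33.2% and 36.1% in NSCs, was at 25.5%, 21.9% and 21.2% in STO cells. *Pds5b* moved by only 2.80 percentage points. The minor forms of *Wapl* (NM_001301330) and *Stag1* (NM_001357264) were listed at 0 in 1 NSC replicate each and at 2.67 and 1.64 FPKM in the other, so the NSC replicates disagree on these forms. The forms NM_001357265 of *Stag1* and NM_001358225 of *Stag2* were listed at 0 in all samples. Reads shared by transcripts of 1 gene were divided by Cufflinks, and the transcript values carry that uncertainty. The sums per gene carry part of it, since each form is divided by its own length.

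**Figure D4:**
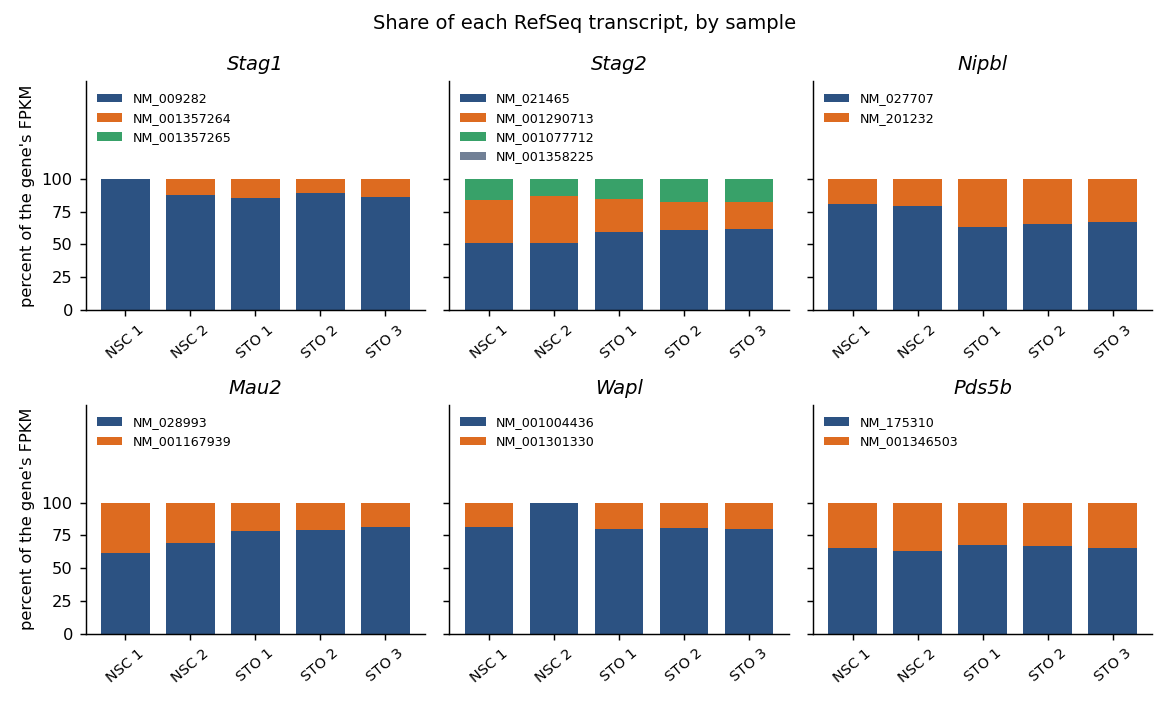
Share of each RefSeq transcript in the FPKM of its gene (percent, stacked to 100), for the 6 members with more than 1 transcript, in each sample. The second form of *Nipbl* takes 18.9% and 20.6% in NSCs and 33.1% to 36.3% in STO cells, that of *Mau2* 31.0% or more against 18.4% to 21.5%, and that of *Wapl* is listed at 0 in NSC replicate 2.

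Further genes of the pathway were counted as lists. Of 11 genes for acetylation, protection and cleavage of cohesin, 7 were higher in STO cells, 2 lower and 2 not past the threshold. Of all tested genes, 41.9% were higher and 43.7% lower. *Sgo1*, the shugoshin that guards centromeric cohesin from removal in mitosis, was at 5.29 ± 0.026 FPKM in NSCs (SD, n = 2) and 11.9 ± 0.307 FPKM in STO cells (SD, n = 3), with a log2 difference of 1.03 ± 0.052 (SE, adjusted p = 3.64e-06). *Esco2*, the acetyltransferase that acts on SMC3 in S phase, rose from 7.57 and 7.86 to 13.9, 14.4 and 14.2 FPKM (log2 difference 0.80, adjusted p = 1.22e-05), whereas the other acetyltransferase, *Esco1*, had 3.99 ± 0.617 FPKM in NSCs (SD, n = 2) against 4.24 ± 0.164 FPKM in STO cells (SD, n = 3; adjusted p = 0.44). The deacetylase *Hdac8*, which lets SMC3 be reused, fell from 10.1 and 9.10 to 5.23, 4.79 and 5.24 FPKM (log2 difference -0.80, adjusted p = 5.58e-05). Of the genes for this mark, *Esco2* was thus higher, *Hdac8* lower and *Esco1* not past the threshold. The samples of *Esco2* and *Hdac8* did not overlap, as in 89.9% of tested genes. What these levels mean for the acetylation of SMC3 was not tested. *Pttg1*, the securin that inhibits separase, was the other gene that fell, from 38.8 and 35.7 to 24.8, 22.7 and 28.6 FPKM. *Espl1*, which encodes separase, *Haspin*, *Sgo2a*, *Cdca5* and *Pttg1ip* were the other 5 that rose, and *Esco1* and *Aurkb* did not pass the threshold.

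Of 8 genes that couple cohesion to the replication fork, 3 were higher (*Chtf18*, *Wdhd1* and *Dscc1*), 1 lower (*Clspn*, not called with FPKM rescaled to the same sum) and 4 not past the threshold. The shares over all tested genes, 41.9% higher and 43.7% lower, stand beside these counts and those of the SMC5/6 complex below. *Chtf18*, a subunit of the clamp loader that supports cohesion, was at 5.68 and 5.79 FPKM in NSCs and 15.6, 13.7 and 16.1 FPKM in STO cells (log2 difference 1.26, adjusted p = 1.02e-05). Its partner *Chtf8* was at 51.0 and 51.3 against 49.0, 48.5 and 46.7 FPKM (adjusted p = 0.14). Among the 8 genes of the related SMC5/6 complex, 5 were higher (*Smc6*, *Slf2*, *Slf1*, *Smc5* and *Nsmce3*) and 2 lower (*Nsmce1* and *Nsmce2*, neither called with FPKM rescaled). *Smc6*, one of its SMC subunits, was at 11.4 and 12.9 FPKM in NSCs and 31.0, 34.2 and 34.7 FPKM in STO cells (log2 difference 1.38, adjusted p = 5.88e-06). Its partner *Smc5* rose by less (log2 difference 0.67, adjusted p = 9.18e-05). *Ctcf*, whose protein halts cohesin at loop anchors, had 37.4 and 40.5 FPKM in NSCs and 39.1, 40.2 and 42.4 FPKM in STO cells, overlapping values with a log2 difference of 0.058 (adjusted p = 0.41; 0.23, adjusted p = 0.010, with FPKM rescaled). None of the 4 meiotic subunits reached 1 FPKM in either cell type. *Rad21l* was listed at 0 in all samples, *Rec8* at 0 in STO cells, *Smc1b* at no more than 0.0144 FPKM, and *Stag3* was at 0.963 and 0.865 FPKM in NSCs and at most 0.0210 FPKM in STO cells.

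The 10 proliferation genes set beside cohesin did not share a direction, with 5 higher (*Mki67*, *Top2a*, *Birc5*, *Ccna2* and *Mcm6*), 3 lower (*Pcna*, *Ccnb1* and *Plk1*) and 2 not past the threshold. Their sum ranged from 773 to 786 FPKM in NSCs and from 750 to 797 FPKM in STO cells. *Pcna* was the largest part of this sum in every sample and was lower in STO cells, so similar sums say little about the other genes. *Mki67*, a marker of cycling cells, was higher in STO cells (47.9 and 55.4 against 80.3, 85.6 and 84.8 FPKM), and *Pcna*, the sliding clamp of DNA replication, was lower (231 and 223 against 131, 126 and 140 FPKM). Over the 38 genes of these lists that were tested, 20 were higher and 8 lower in STO cells, with a median log2 difference of 0.20, against 41.9% and 43.7% of all tested genes. With FPKM rescaled to the same sum, the split was 25 higher and 4 lower, and that of the proliferation genes 7 and 2. On that scale 5876 of all 12292 tested genes were higher and 4669 lower.

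**Figure D5:**
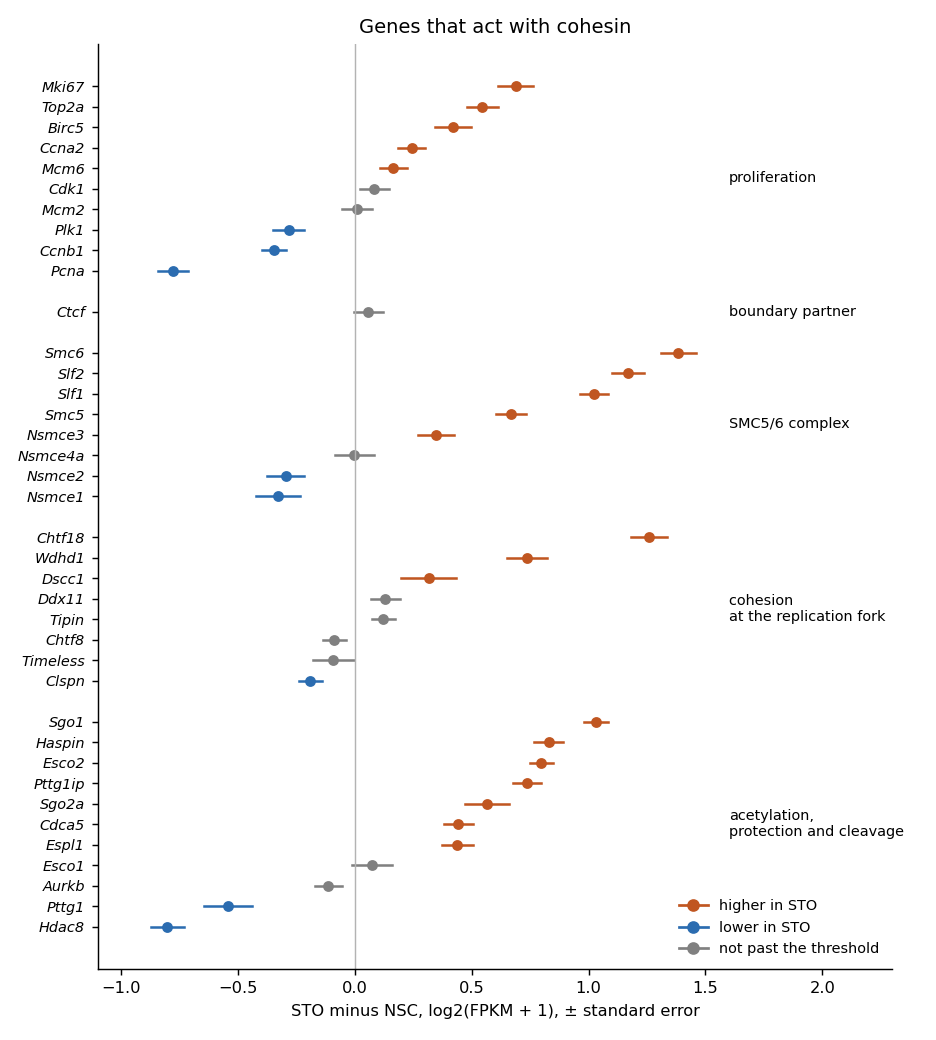
Difference between STO cells and NSCs on the log2(FPKM + 1) scale, ± SE from limma, for the 38 tested genes of 5 lists, in orange where called higher, in blue where called lower and in grey otherwise. The differences run from -0.80 (*Hdac8*) to 1.38 (*Smc6*), and *Ctcf* lies at 0.058.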

How the data were processed

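Stranded mRNA libraries were read from both ends. After trimming, the authors mapped the reads to mm9 with HISAT2 (version given as 4.8.2) and estimated transcript levels with Cufflinks 2.2.1 and UCSC's RefSeq annotation. The authors deposited 1 FPKM file per sample with confidence bounds, also in FPKM, for 40201 transcripts. Rows stand in a different order in each file and were joined by transcript and locus. Symbols came from a RefSeq table of GRCm38.p6, used for names only, and matched 39951 transcripts (99.4%). FPKM of transcripts with 1 symbol and overlapping loci were summed. No locus of another gene overlapped a member. In mm9, the members lie as follows: Smc1a chrX:148450971-148496516, Smc3 chr19:53674886-53720321, Rad21 chr15:51794150-51823306, Stag1 chr9:100543867-100858963, Stag2 chrX:39502589-39630363, Nipbl chr15:8239824-8394463, Mau2 chr8:72540022-72566633, Wapl chr14:35487114-35561169, Pds5a chr5:66006499-66089095 and Pds5b chr5:151476402-151613245, each value being a sum over exons of the transcripts there.

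Genes whose mean reached 1 FPKM in either cell type (12292) were tested on log2(FPKM + 1) by limma 3.58.1 under R 4.3.3, using a trended eBayes step, with Benjamini-Hochberg adjustment over all of them and a threshold of 0.05. This scale understates the change of low values. The 6 ratios were tested by an exact two-sided permutation test over samples (scipy 1.17.1). The fit was tested on simulated data in which 200 of 12292 genes were changed. It called 97 of 100 changes of 1 on the log2 scale, 76 of 100 changes of 0.5, and 5 unchanged genes. In the real data 85.6% of tested genes were called, so the simulated setting differs from them.

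No read counts were used. The fragments behind a value were taken from the deposited upper bound, as if it were 2 standard deviations of a Poisson count. They ranged from 925 to 11817 per member and sample. For members with more than 1 transcript, that bound may also hold the uncertainty of dividing reads between transcripts. The fragments behind those values may then be understated. The bound does not cover the spread between samples. Nothing states that replicates came from separate cultures, so p-values measure the spread between these samples, which may be technical. An exact 0 can be a failed estimate. Members and lists were chosen with earlier results of these data known. Named were all members and their transcripts, Ctcf, the sex-linked genes, and Smc1b and Stag3 in addition. Of the listed partner and proliferation genes, those that passed the threshold or stood at 0 were named, with at most 4 values per list. Which of these genes carry values, and Esco1, Aurkb, Chtf8 and the markers beside them, was chosen after their values were seen. Alternatives changed the pseudocount, filter, scaling, trend, replicate block, transcript and samples. Other assays of the study were not analysed here.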

Additional observations from a re-analysis of the deposited data

How the results depend on the processing

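The 8 members called higher in STO cells kept their direction and their call in all 104 values from the 13 other fits, with an adjusted p of at most 0.0158 (limma), including fits with the replicate number as a block and fits that left out each sample. A fit with 1 NSC sample assumes that it varies like the STO samples. With an added minimum of 1 on the log2 scale, 2 members, 2103 of all genes and 5 genes of the further lists were higher. Of all genes 2617, and of the further lists 0, were then lower. With FPKM rescaled to the same sum, 4 genes of these lists were lower against 8, and 4669 of all genes against 5375. The further lists include the 10 proliferation genes. *Rad21* passed the threshold with rescaling (0.30) and with quantile normalization (0.25, adjusted p = 0.015). *Mau2*, at -0.0039, changed sign with rescaling (0.16), the replicate block (0.0035), its leading transcript (0.25), and in fits without NSC replicate 2 (0.017), STO replicate 2 (0.025) or STO replicate 3 (0.0035), within a range of -0.041 to 0.025 over the fits that left out 1 sample. It was called with rescaling and for its leading transcript; the cause was not tested. The 6 ratios kept their direction in these alternatives, but for leading transcripts *Wapl* to *Nipbl* (-0.057, exact permutation p = 0.8) overlapped between the cell types.

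Both cell types have replicates numbered 1 and 2, and nothing pairs them: deviations from the group means correlated at 0.0075 and 0.061 for samples with the same number. With the replicate block, 4994 genes were higher and 5252 lower, against 5153 and 5375, the count of members stayed at 8, and the block changed no member's call. The bounds of the 2 *Mau2* transcripts imply 925 to 1216 fragments per sample, the fewest of the members in every sample. These bounds may also reflect how reads were divided between the transcripts, so this need not be low coverage.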
